A study of Mus musculus with 4 samples.

Results

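Olfactory receptor genes on mouse chromosome 9 were examined for open chromatin in an ATAC-Seq experiment on hematopoietic stem cells, which maps the DNA that the transposase Tn5 can reach. The members were all genes of the RefSeq gene table on chromosome 9 (GRCm38.p6, the assembly of mm10) whose symbol starts with Olfr, or with the newer Or plus a digit. This gave 179 of the 49550 genes on the autosomes and X: 130 protein-coding genes, 48 pseudogenes and 1 gene of another RNA type. The rule used name and place and no measured value, though it was set with earlier results of these data known. The cells were sorted from the bone marrow of control mice, labelled WT and described in the paper as Cpt1a fl/fl, and of Cpt1a-KO mice, in which Vav1-Cre deletes Cpt1a in the hematopoietic system. All mice were adults on the C57BL/6 background. The labels give the cells as long-term HSCs and the paper as HSPCs. Each genotype had 2 libraries, and no label says whether these came from separate animals, so the spread between them may be technical. Peaks had been called by the authors on each library separately. RNA is not part of these data, so whether the genes are silent was not measured here.

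Olfactory receptors are G protein-coupled receptors of the nasal epithelium and form the largest gene family of the mouse. Each gene is short, with its coding sequence usually in a single exon, and most lie in long tandem clusters with many pseudogenes. An olfactory sensory neuron expresses a single receptor allele, and the remaining receptor genes are kept in heterochromatin marked by histone H3 lysine 9 trimethylation. The clusters are long and hold few other genes.

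The 179 members fell into 2 clusters, taken as runs with gaps of at most 1 Mb, and 1 isolated pseudogene, Olfr369-ps1 (chr9:3233343-3236366). The smaller cluster ran from Olfr24 to Olfr18 (chr9:18754692-20336094) and held 51 members. The larger ran from Olfr160 to Olfr986 (chr9:37711348-40188094) and held 127 members. Median gene length was 943 bp, with a range from 236 to 23752 bp, and the windows of gene plus 1 kb on each side covered 0.686 Mb. The promoters show how these genes differ from an open gene in their midst. RefSeq promoters (GRCm38.p6, 250 bases before to 50 after the start) were matched to 109 members. The promoters of 3 of them are printed here 5′ to 3′ beside that of Zfp317, a zinc finger gene inside the smaller cluster, with CpG dinucleotides in capitals. Olfr854 (chr9:19567333-19567632, minus strand) is the only matched member with a peak over its promoter, Olfr922 (chr9:38815158-38815457, plus strand) had the strongest member peak in KO 2, and Olfr24 (chr9:18755584-18755883, minus strand) opens the smaller cluster and had no peak. The Zfp317 window is chr9:19621841-19622140 on the plus strand.
Olfr854: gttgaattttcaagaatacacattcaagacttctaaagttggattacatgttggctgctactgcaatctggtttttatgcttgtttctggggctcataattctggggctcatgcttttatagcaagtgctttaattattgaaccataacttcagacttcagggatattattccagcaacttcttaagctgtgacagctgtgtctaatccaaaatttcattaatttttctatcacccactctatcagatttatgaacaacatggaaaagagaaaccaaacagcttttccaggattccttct
Olfr922: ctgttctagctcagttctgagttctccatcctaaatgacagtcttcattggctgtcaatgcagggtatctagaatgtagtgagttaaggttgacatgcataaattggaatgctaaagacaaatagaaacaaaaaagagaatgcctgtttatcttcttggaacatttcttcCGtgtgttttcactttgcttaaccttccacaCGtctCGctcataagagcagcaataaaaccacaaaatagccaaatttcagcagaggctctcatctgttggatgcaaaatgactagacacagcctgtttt
Olfr24: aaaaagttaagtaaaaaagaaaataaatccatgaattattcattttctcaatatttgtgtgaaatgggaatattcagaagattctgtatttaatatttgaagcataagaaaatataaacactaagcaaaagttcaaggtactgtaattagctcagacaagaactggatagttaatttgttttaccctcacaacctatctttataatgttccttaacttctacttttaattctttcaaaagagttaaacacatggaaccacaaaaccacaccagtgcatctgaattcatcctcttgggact
Zfp317: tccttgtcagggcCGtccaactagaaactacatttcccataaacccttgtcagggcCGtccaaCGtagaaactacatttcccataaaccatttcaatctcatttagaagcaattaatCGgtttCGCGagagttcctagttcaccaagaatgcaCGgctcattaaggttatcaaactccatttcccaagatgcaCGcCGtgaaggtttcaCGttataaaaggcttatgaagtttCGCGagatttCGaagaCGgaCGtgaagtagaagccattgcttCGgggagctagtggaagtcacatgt

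The Olfr854 and Olfr24 sequences hold 0 CpG and that of Olfr922 holds 3, against 16 in the Zfp317 sequence. G and C made up 36.0%, 39.3% and 29.3% of the 3 receptor promoters and 44.7% of the printed Zfp317 promoter. Another RefSeq promoter of Zfp317 (chr9:19622054-19622353), not printed, had 55.0% G and C and 20 CpG. Over the 110 promoters of the 109 members the median G and C content was 34.0%, against 58.3% in 1124 promoters of other protein-coding genes of chromosome 9 and 53.0% in all 32619 promoters. The median number of CpG was 1.0 in member promoters, 16.0 in the other coding promoters of the chromosome and 7.0 overall. At most 3 CpG were found in 95.5% of member promoters and in 31.0% of all promoters. Olfr promoters of other chromosomes were alike, with a median of 35.3% G and C and 1.0 CpG over 838 windows.

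**Figure D1:**
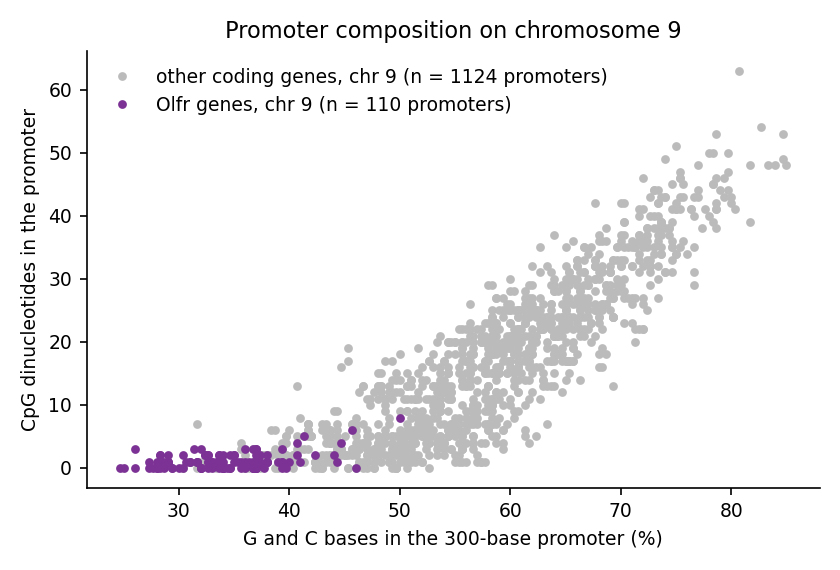
Percent of G and C bases (x axis) and number of CpG dinucleotides (y axis) in the 300-base promoter windows of chromosome 9, each point a promoter. The 110 Olfr promoters lie at low values of both, with no more than 8 CpG, while the 1124 promoters of other coding genes reach 63.

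Short motifs were searched on both strands of the same windows, with overlapping matches of different motifs allowed. The core promoter motif TATAAA was in 44.5% of member promoters and 13.7% of all promoters. The homeodomain core TAATTA, the letters bound by factors such as LHX2, was in 25.5% of member promoters and 5.25% of all. AGATAA, bound by blood factors of the GATA family, was in 32.7% of member promoters and 11.2% of all. These 3 motifs are rich in A and T, as the member promoters are. GAGGAAGT, a motif of the blood factor PU.1, was in 0 of the 110 member windows and in 3.22% of all promoters. Olfr promoters of other chromosomes held TATAAA in 40.6%, TAATTA in 17.7%, AGATAA in 27.3% and GAGGAAGT in 0.835%, so these traits were not particular to the members. A motif of the EBF family of factors, which includes Ebf1, was also searched and was rare in every set. It was in 0 of the 110 member windows, 0.597% of Olfr promoters of other chromosomes and 0.907% of all promoters. A match is a run of letters and not a measured binding site.

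Peaks were nearly absent at the receptor genes in every library. A peak is an interval with more transposase cuts than the local background, and here a gene counted as having a peak when an interval overlapped the gene plus 1 kb on each side by at least 1 bp. Control 1 had a peak at 2 of 179 members and control 2 at 1, while KO 1 had a peak at 6 and KO 2 at 8. These are 1.12% and 0.559% of members in the controls and 3.35% and 4.47% in KO 1 and KO 2. The same windows around all 49550 genes held a peak for 58.8%, 56.6%, 59.0% and 58.8% of genes, in the same order of libraries. Over the 4 libraries together, 164 members had no peak, 14 had a peak in a single library, 1 in 3 libraries and 0 in all 4. For all genes, 52.1% had a peak in all 4 libraries and 66.5% in any.

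Receptor genes are short, and a short window meets fewer peaks, so counts were also set per length. Per Mb of member window there were 2.92 and 1.46 intervals in the controls and 8.75 and 11.7 in KO 1 and KO 2. Windows of the 2308 other genes of chromosome 9 held 106 and 97.1 intervals per Mb in the controls and 117 and 103 in KO 1 and KO 2. After the 4 lists were merged at 1 bp overlap, the density of regions at members was 0.111 times that at the other genes of the chromosome. Of 466 other chromosome 9 genes no longer than 1046.5 bp, the third quartile of member length, between 21.2% and 25.1% had a peak, so the low share among members was not matched by other short genes of the chromosome. These are descriptions of the lists. The files do not state where in these repeated gene families reads could be placed uniquely, nor how reads with several placements were treated.

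Pooled over the other chromosomes, receptor genes had peaks more often than the members, though single chromosomes differed: on chromosome 2, which holds more Olfr genes than any other, 2, 1, 3 and 4 of 377 had a peak in control 1, control 2, KO 1 and KO 2. Of all 1249 Olfr genes on other chromosomes, 6.89% and 5.44% had a peak in the controls and 7.53% and 8.73% in KO 1 and KO 2, and 37 of them had a peak in all 4 libraries. Their windows held 20.3 to 31.3 intervals per Mb. Weak intervals, those under a −log10 q of 5, were also sparse. They numbered 1.46, 0, 8.75 and 11.7 per Mb at members in control 1, control 2, KO 1 and KO 2. At all genes they numbered 61.1, 50.4, 69.2 and 65.9 per Mb in the same order of libraries. At all genes, too, both KO libraries thus had more weak intervals than both controls.

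**Figure D2:**
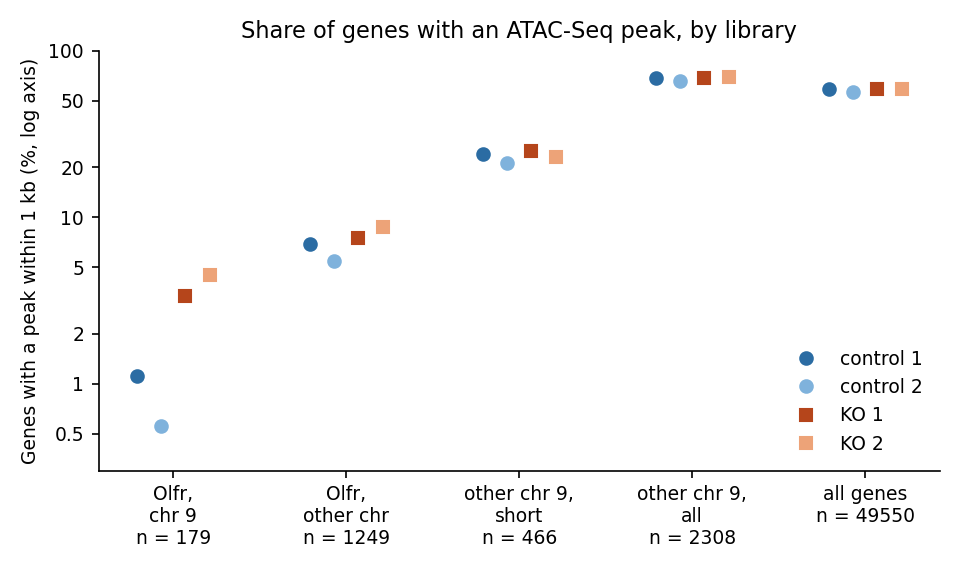
Percent of genes with a peak in the gene plus 1 kb (y axis, log scale) for 5 sets of genes (x axis), with circles for the control and squares for the KO libraries. Olfr genes of chromosome 9 lie between 0.559% and 4.47%, below Olfr genes of other chromosomes (5.44% to 8.73%), short genes of chromosome 9 and all genes.

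The peaks that were called at members were mostly weak and narrow. Column 9 of the lists gives the −log10 q of a summit, where q is the p-value adjusted for the many sites tested, so 1.3 stands for a q of 0.05. Over the 4 lists there were 17 intervals at members, 3 in the controls and 14 in KO 1 and KO 2, each with a single summit. A q over 0.05 was given to 10 of the 17, of which 9 were in KO lists, and a −log10 q of at least 5 to 2, both in control lists. In the complete lists 36.4% and 42.8% of control intervals and 34.3% and 29.1% of KO intervals reached 5. Median −log10 q at members was 6.66 and 5.99 in the controls (2 and 1 intervals), 0.886 in KO 1 and 1.02 in KO 2, against list medians of 2.68, 3.68, 2.62 and 2.23. Widths ran from 73 to 224 bp, and 16 of the 17 intervals were narrower than the median of their list. The narrowest width that any list holds is 73 bp, and 6 member intervals had it, 3 in each KO library. It was the width of 11.1% and 9.23% of all intervals in the control lists, 14.8% in KO 1 and 15.5% in KO 2. Of the 17 intervals, 10 shared their exact −log10 q with another member interval of the same library. Such values are common in the lists: 0.886 stands for 15572 intervals in KO 1 and 0.459 for 19270 in KO 2.

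**Figure D3:**
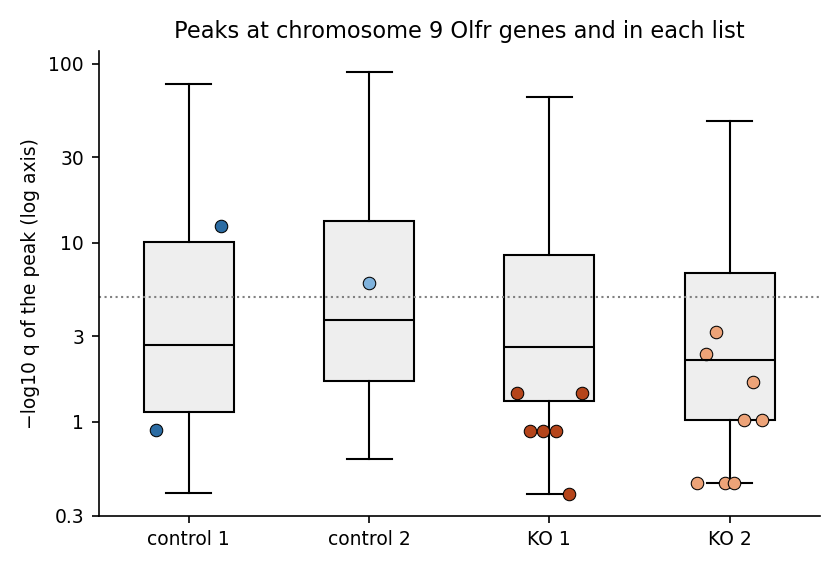
−log10 q (y axis, log scale) of the 17 intervals at chromosome 9 Olfr genes (points) beside the whole list of each library (boxes from the 25th to the 75th percentile with the median, whiskers from the 5th to the 95th). The dotted line marks 5. Only the points of Olfr229 in both controls lie above it, and 12 of the 14 KO points lie below the median of their list.

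Olfr229, a protein-coding receptor gene of the larger cluster (chr9:39909805-39910728), was the single member with a peak in more than 1 library. Its −log10 q was 12.4 in control 1 (chr9:39909990-39910213), 5.99 in control 2 (chr9:39910038-39910178) and 1.02 in KO 2 (chr9:39910065-39910137), and KO 1 had no peak there. The 3 intervals lie inside the gene and overlap one another. The fold of the signal over local background was 7.15, 4.74 and 2.85 in the same libraries. Within their own lists, the control peaks stood above 77.8% and 60.7% of intervals and the KO 2 peak above 20.6%. Both controls were thus higher than both KO libraries at this gene. The medians of the complete lists had the same order, with a −log10 q of 2.68 and 3.68 in the controls and 2.62 and 2.23 in KO 1 and KO 2. The share of all genes with this order was not counted. An exact two-sided permutation test of 2 libraries against 2 cannot give a p under 0.333, and these scores also rise with read depth, which is unknown.

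The other 14 members with a peak had it in 1 library. In control 1 this was Olfr1545-ps1, a pseudogene, with a −log10 q of 0.901. In KO 1 they were Olfr848-ps1 and Olfr982 (1.45 each), Olfr854, Olfr856-ps1 and Olfr151 (0.886 each) and Olfr940-ps1 (0.397). In KO 2 they were Olfr922 (3.19), Olfr874 (2.40), Olfr978 (1.68), Olfr981 (1.02), and Olfr843, Olfr943 and Olfr961 (0.459 each). No member was in both KO lists. Of the 17 intervals, 15 overlapped the gene and 2 lay in the flank, at Olfr848-ps1 (878 bp away) and Olfr940-ps1 (688 bp away). The Olfr854 interval in KO 1 (chr9:19567288-19567360) covered the last 28 bases of the promoter printed above. It was the only one of the 110 member promoters to meet a peak, while 70.7% to 72.6% of the promoters of other coding genes on the chromosome met one. The Olfr922 interval (chr9:38815818-38815892) was 75 bp wide and lay inside the gene.

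Few coding genes and few pseudogenes had a peak. A peak in any library was found at 10 of 130 protein-coding members (7.69%) and at 5 of 48 pseudogenes (10.4%). All 8 members with a peak in KO 2 were protein-coding, whereas 4 of the 6 in KO 1 were pseudogenes (Olfr151 is listed as a transcribed pseudogene). By place, 4 of the 51 members of the smaller cluster and 11 of the 127 of the larger had a peak in any library, and Olfr369-ps1 had none. The first and last members of the clusters, Olfr24, Olfr18, Olfr160 and Olfr986, also had none.

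The libraries were compared by genotype over the members. The percent with a peak was 0.838 ± 0.395 in control and 3.91 ± 0.790 in KO (mean ± SD, n = 2 libraries each), a difference of 3.07 percentage points. The groups did not overlap, and the two-sided exact permutation test gave p = 0.333, the smallest that 2 against 2 libraries allow. Olfr genes of other chromosomes differed in the same direction, with 6.16% ± 1.02 in control and 8.13% ± 0.849 in KO (n = 2 each, exact permutation p = 0.333). So did the 2308 other genes of chromosome 9, with 67.2% ± 2.05 in control and 69.0% ± 0.368 in KO (n = 2 each, exact permutation p = 0.333). For all genes the values were 57.7% ± 1.58 and 58.9% ± 0.137 (n = 2 each, exact permutation p = 0.667). The excess in KO at members lay wholly in peaks under a −log10 q of 5. When only summits of at least 5 were kept, the members with a peak were 1 in each control (Olfr229) and 0 in each KO library, so the direction turned. With the 100000 strongest summits of each library it was 1 in control 1 and 0 in the other libraries. In the complete lists a q over 0.05 was given to 26.7% (control 1), 20.9% (control 2), 24.9% (KO 1) and 32.8% (KO 2) of intervals, and their part in the difference was not tested.

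Agreement between libraries over the members rested on a single gene, Olfr229, and was 0 between the KO libraries. The controls shared Olfr229, which is 50.0% of the members with a peak in control 1 and 100% of those in control 2. The KO libraries shared 0 members out of 6 and 8. Between genotypes, KO 2 shared Olfr229 with each control and KO 1 shared 0 with either. The Jaccard index, the members with a peak in both libraries over those with a peak in either, was therefore 0.5 between the controls, 0 between the KO libraries and 0 to 0.125 between genotypes. Over Olfr genes of other chromosomes it was 0.495, 0.381 and 0.345 to 0.434, and over all genes 0.889, 0.865 and 0.866 to 0.881. No member had a peak in both KO libraries and neither control, or in both controls and neither KO library. Across all genes these patterns held for 0.906% and 0.503%. The 17 member intervals merged into 15 regions, and 0 of them were held by the libraries of 1 genotype alone (both KO, or both control), against 1.41% and 2.46% of 337776 merged regions. Of the 15 regions, 14 (93.3%) were in 1 library, compared with 59.3% of all regions. A region in all 4 libraries made up 23.8% of all regions and none of those at members.

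The spaces around the members were then searched for open sites. In the smaller cluster the 4 lists gave 14 merged regions over 1.58 Mb, of which 4 were at members, 2 at other genes and 8 between genes. A single one was held by all 4 libraries, at the start of Zfp317 (chr9:19621720-19622472). Its −log10 q was 176 and 198 in the controls and 198 and 126 in KO 1 and KO 2. It lay 34567 bp from the nearest member, Olfr856-ps1. The other 13 regions of that cluster were each in 1 library.

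The larger cluster held more sites shared by all 4 libraries, none of them at a receptor gene. Over 2.48 Mb there were 65 merged regions, with 11 at members, 11 at other genes and 43 between genes, and 10 were held by all 4 libraries. Of these 10, 2 were at other genes: Vwa5a (−log10 q of 8.54, 29.9, 24.6 and 14.1 in control 1, control 2, KO 1 and KO 2) and Gm35123, a long noncoding RNA gene (22.2, 31.1, 29.5 and 28.9). The other 8 lay between genes, 2382 to 21160 bp from the nearest member. The strongest of them, chr9:40116541-40117592, was 9332 bp from Olfr985 and had a −log10 q of 46.3 and 31.1 in the controls and 29.0 and 28.6 in KO 1 and KO 2. A region 4376 bp from Olfr229 (chr9:39905038-39905429) was in all 4 lists, with 8.54 and 9.45 in the controls and 10.4 and 4.01 in KO 1 and KO 2. The site nearest to a member was 2382 bp from Olfr876 (chr9:37807318-37807679), with 12.4, 12.3, 12.4 and 5.80. Among the 65 regions, 4 were held by both KO libraries and neither control, and 1 by both controls and neither KO library. Over all 337776 merged regions these patterns made up 1.41% and 2.46%, and counts this small were not tested.

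**Figure D4:**
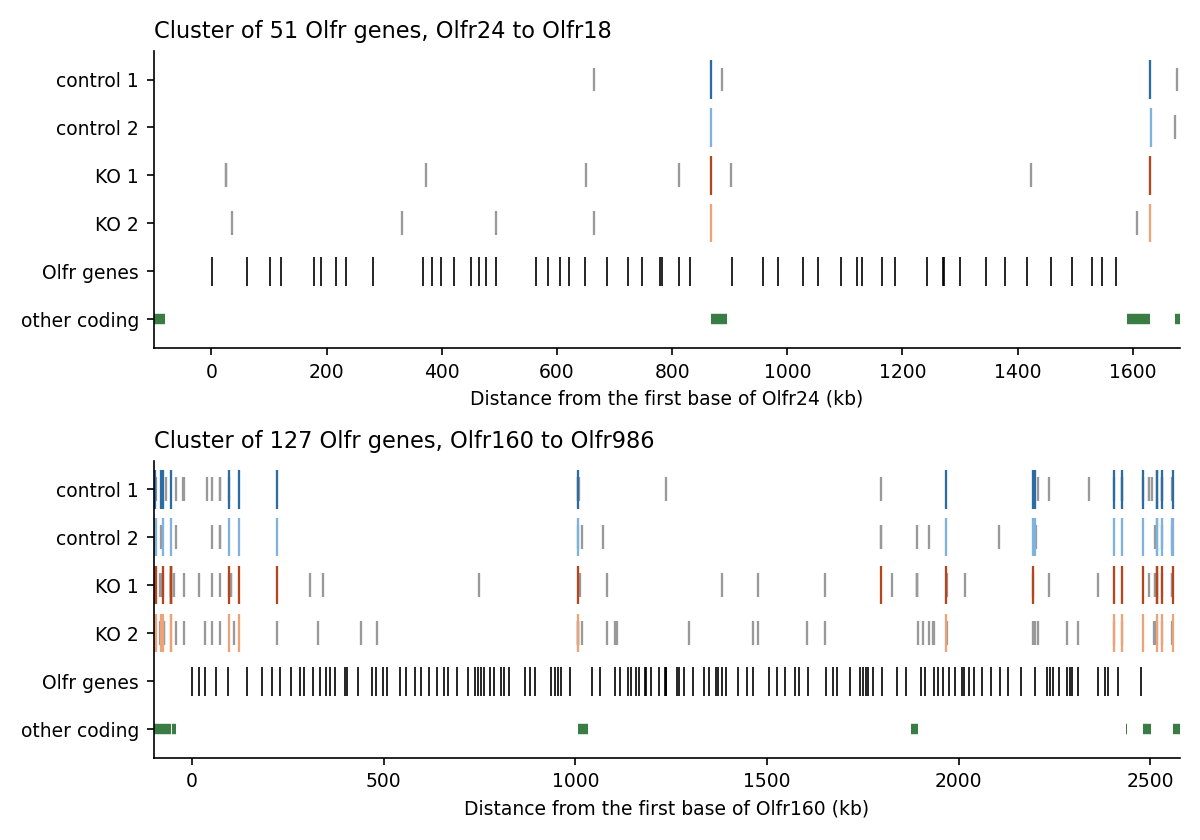
Peaks of each library along the 2 clusters, with distance from the first member in kb on the x axis. Colored ticks are intervals reaching a −log10 q of 5, grey ticks weaker ones, black ticks Olfr genes and green bars other coding genes. The plots run on past the cluster ends. Between the first and last Olfr gene each library has 1 colored tick in the smaller cluster, at Zfp317, and 6 to 9 in the larger, and the KO libraries have more grey ticks than the controls.

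Between these sites lay long stretches with no peak. In both controls the longest stretch of the larger cluster ran for 785 kb, from Olfr879-ps1 to Olfr919, and took in 43 members (chr9:37932783-38718190 in control 1). In KO 1 the longest was 408 kb with 22 members and in KO 2 it was 524 kb with 29 members. In the smaller cluster, control 2 had 867 kb without a peak (chr9:18754692-19621812, 29 members from Olfr24 to Olfr855), control 1 had 695 kb, KO 1 had 520 kb and KO 2 had 714 kb. Counted past the cluster edges, the longest stretch that touched this cluster was 945 kb in control 1, where it is another stretch, at the Olfr24 end, 1148 kb in control 2, 520 kb in KO 1 and 740 kb in KO 2. Among all stretches of chromosome 9 in the same library these ranked 2, 2, 6 and 1 by length. Interval density in the smaller cluster was 1.90 and 0.632 per Mb in the controls and 5.06 and 3.16 in KO 1 and KO 2. In the larger cluster it was higher, at 10.1, 8.48, 13.3 and 15.7 per Mb in control 1, control 2, KO 1 and KO 2. Along the whole of chromosome 9 it was 71.1 to 86.6 per Mb.

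Most members lay far from any listed peak. The median distance from a member to an interval was 96086 bp in control 1, 143565 bp in control 2, 44722 bp in KO 1 and 51816 bp in KO 2. For the 1071 other coding genes of the chromosome the median was 0 bp in each library, that is, a peak overlapped the gene. More than 50 kb from any peak were 69.3% and 72.1% of members in the controls and 46.4% and 50.3% in KO 1 and KO 2, against 1.77% to 2.89% of the other coding genes. The members farthest from a peak were Olfr832 in control 1 (470624 bp), Olfr835 in control 2 (561110 bp), Olfr77 in KO 1 (254642 bp) and Olfr864-ps1 in KO 2 (364714 bp). Both KO medians were shorter than both control medians with all peaks. With peaks of a −log10 q of at least 5 the medians were 185905 and 185882 bp in the controls and 158801 and 210767 bp in KO 1 and KO 2, so the groups then overlapped.

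**Figure D5:**
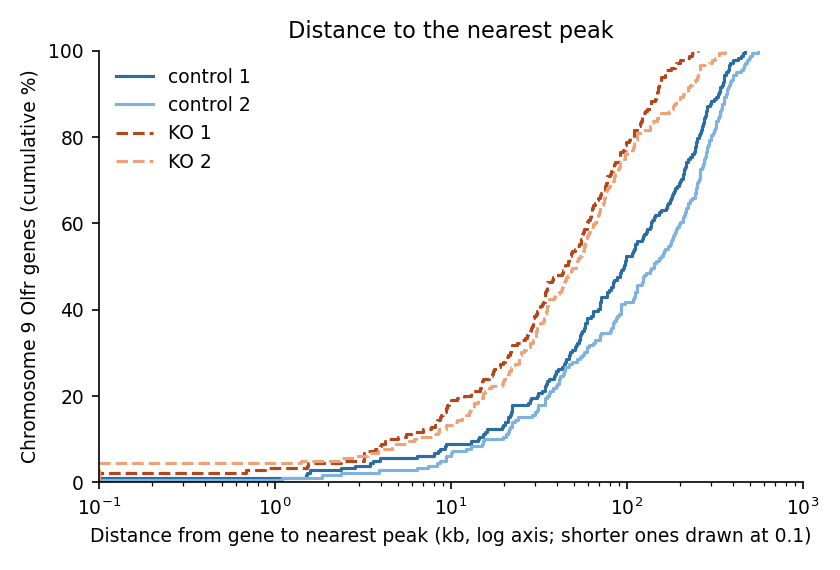
Cumulative percent of the 179 members (y axis) by distance to the nearest peak in kb (x axis, log scale), with solid lines for the control and dashed lines for the KO libraries. With all peaks the KO curves lie to the left of the control curves over most of the range, with medians of 44722 and 51816 bp against 96086 and 143565 bp.

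Genes that work with the receptors gave a mixed picture. Of 10 transduction genes, which carry the odor signal in the neuron, 8 had a peak in all 4 libraries. Cnga2, a subunit of the cyclic nucleotide-gated channel, had none in any library, and Omp, the olfactory marker protein, had a peak in KO 2 only (−log10 q of 1.51). Gnal, which encodes the olfactory G protein alpha subunit and is also used outside the nose, had a −log10 q of up to 77.9, 127, 104 and 79.8 in control 1, control 2, KO 1 and KO 2. Of 4 receptor trafficking genes, 3 had a peak in all 4 libraries, and Rtp1, a receptor transporter, had a peak only in KO 1 (1.45). All 16 genes for receptor choice and heterochromatin had a peak reaching a −log10 q of 5 in all 4 libraries. These include Lhx2 (79.7, 62.3, 70.0 and 45.1), a LIM homeodomain factor, Ldb1 (101, 108, 117 and 69.3), its cofactor, and Ebf1 (29.3, 25.2, 24.6 and 14.1), which also acts in B cells. Many of these genes act in several tissues and span far more sequence than a receptor gene.

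Other genes served as a check of the lists. All 14 blood and housekeeping genes chosen on chromosome 9 had a peak reaching a −log10 q of 5 in all 4 libraries, among them the blood factor gene Fli1, with 38 and 43 intervals in the controls and 31 and 33 in KO 1 and KO 2. The targeted gene Cpt1a had 20 and 19 intervals in the controls and 20 and 15 in KO 1 and KO 2, which does not test its deletion. All 10 stem and progenitor markers had a peak in all 4 libraries, 8 of them reaching a −log10 q of 5 throughout. So did 4 of 6 T cell, 5 of 5 B cell, 4 of 5 erythroid and 4 of 5 neutrophil markers, with 3, 3, 3 and 0 at that strength, so a peak near a gene did not set these cell types apart. Of 5 olfactory sensory neuron markers, 2 had a peak in all 4 libraries. In bulk libraries a site open in few cells and a site slightly open in all cannot be told apart.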

How the data were processed

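ATAC-Seq of 2 control and 2 KO libraries was analyzed from 4 lists of peaks. The authors called peaks on each library, and the submitters' processing notes name Bowtie2, MACS2 and mm10, with no versions. Each row is a summit, and the deposited lists give its fold over the local background of the same library and its −log10 p and −log10 q (p-value and q-value on a log scale). No summit in them has a −log10 p under 2.0. The lists hold no read counts, so depth, and the precision it gives, is unknown, and a test on reads such as the one in the study was not possible.

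Rows with the same interval were collapsed, keeping the highest −log10 q, which left 161962 to 196570 intervals per library on the autosomes and X. Genes came from the RefSeq table of GRCm38.p6 and promoters from RefSeq. Windows were the gene plus 1000 bp on each side, and overlaps were computed in pandas 2.3.3 and numpy 2.4.6 (Python 3.11.15), with scripts tested on simulated data. Genotypes were compared for a single value per library with two-sided exact permutation tests (scipy 1.17.1), and all other comparisons are descriptions. Alternatives were a −log10 q of at least 5, the 100000 strongest summits, lists of equal length (240881 summits), flanks of 0 and 5 kb, summits in place of intervals, protein-coding members and leaving out each library.

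The members, gene lists and alternatives were chosen with earlier results of these data known. Members named were to be those with a peak in all 4 libraries or in both libraries of a genotype alone, the ends of each cluster, and the member with the highest −log10 q of each library. Of each list, the first genes of each pattern were to be named. As few members had a peak, all 15 were named after their values were seen, as were the genes inside the clusters, the shared regions and the printed promoters. The sequence motifs, the weak interval counts and the stretches under other settings were also added then.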

Additional observations from a re-analysis of the deposited data

How the results depend on the processing

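The mean percent of members with a peak (2.37 over the 4 libraries) fell to 0.279 reaching a −log10 q of 5 and to 0.140 with the 100000 strongest summits, and rose to 6.84 with a 5 kb flank. Without each library in turn it ranged from 1.68 to 2.98. The KO minus control difference of 3.07 percentage points reversed to -0.559 and -0.279 in the former 2 settings, which keep fewer peaks by construction. It stayed above 0 in the other 9 of 11 settings, with 2.51 to 3.63 when a library was left out, and no setting with a test gave an exact permutation p under 0.333. Regions only in KO went from 0 to 1 with a 5 kb flank and to 7 without KO 1 or 6 without KO 2, a range of 0 to 7 over the libraries left out, since a single library then decides. Regions only in control went from 0 to 1 reaching a −log10 q of 5, and ranged from 0 to 1 with a library left out. Region density relative to other chromosome 9 genes (0.111) was 0.0297 and 0.0324 with the stricter lists, 0.201 with no flank, and 0.0697 (without KO 2) to 0.121 with a library left out.

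The mean over libraries of the median −log10 q at members (3.64) was 9.20 and 12.4 with the stricter lists, 5.08 with lists of equal length, 2.44 with a 5 kb flank, 5.15 for protein-coding members and 2.63 to 4.56 with a library left out. With the complete lists and the 1 kb flank it rests on 1 to 8 intervals per library. A library with no member interval is left out of the mean. The 9.20 thus rests on Olfr229 in both controls, and the 12.4 on Olfr229 in control 1. The Jaccard index within genotypes minus that between them (0.191) was 1.0 and 0.0 with the stricter lists, 0.438 with lists of equal length and for protein-coding members, 0.0810 with a 5 kb flank, and -0.0625 to 0.5 with a library left out. It turned below 0 without control 1 or control 2, as the only shared member is Olfr229. A pair of libraries in which no member has a peak is left out. With the stricter lists this holds for the KO pair, so agreement within genotypes rests on the control pair alone. The mean longest stretch with no peak (722 kb) was 937 and 994 kb with the stricter lists and 673 to 789 kb with a library left out. The cause of these shifts was not tested beyond what the settings do by construction. With the replicate number as a block, an alternative chosen after seeing the data, the KO minus control difference was 2.23 points for number 1 and 3.91 for number 2, with a mean of 3.07 and an exact sign-flip permutation p of 0.5, the smallest that a pair of differences allows. Deviations of same-numbered libraries from their group means did not correlate (r = -0.021 over 32969 genes, which are not independent). With 2 libraries per genotype this is a single comparison. It cannot show whether same-numbered libraries share more than a number, such as a preparation.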

Other observations

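The share of Olfr genes with a listed peak varied between chromosomes. Chromosome 2, with the most Olfr genes, had a peak in any library at 8 of 377 (2.12%) and in all 4 at 0. Chromosome 7 had 62 of 294 (21.1%) and 9 in all 4, and chromosome 11 had 22 of 104 (21.2%) and 3 in all 4. On chromosome 1 it was 16 of 34 (47.1%) and 4 in all 4. Chromosome 9, with 15 of 179 (8.38%) and 0 in all 4, lay between chromosomes 2 and 7. Chromosome 19 had 6 of 91 and 0 in all 4. These counts share libraries and are given without a test.

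Other families of chemosensory receptors, which are also used mainly in sensory epithelia, did not all have as few peaks. Of 359 vomeronasal receptor genes, 4.18% and 1.95% had a peak in the controls and 3.06% and 4.74% in KO 1 and KO 2, and 3 genes had a peak in all 4. Per Mb of window these genes held 2.52 to 5.04 intervals, in the range of the chromosome 9 Olfr genes. Of 40 bitter taste receptor genes, 1 had a peak in each control and in KO 1, and 4 had a peak in KO 2, with 8.64 to 34.6 intervals per Mb. Of 16 trace amine receptor genes, 3 and 2 had a peak in the controls and 1 and 3 in KO 1 and KO 2. Their windows held 59.0 intervals per Mb in both controls and KO 2 and 19.7 in KO 1, more than those of the chromosome 9 Olfr genes (1.46 to 11.7). In the vomeronasal and trace amine receptor genes the control and KO libraries overlapped.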
